A study of Equus caballus with 4 samples.

Results

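The oligoadenylate synthetase (OAS) and IFIT families of interferon-induced antiviral genes were described in equine satellite cells, the muscle stem cells of the horse, with and without β-hydroxy-β-methylbutyrate (HMB), a metabolite of the amino acid leucine. The families were taken as 8 genes, whose symbols are OAS1, OAS2, OAS3, OASL, IFIT1, IFIT2, IFIT3 and IFIT5 on the array, written below as *oas1* and so on, and their probes were chosen by gene symbol on a horse expression array. Of the 8, 5 genes had a probe under their symbol, with 14 probes among the 43603 that were not controls, and the array carried 15267 symbols in all. *Ifit1* and *ifit5* were named only in the text description of 1 probe each, as was a further *oas3* probe, so these 3 probes lie outside the choice by symbol and are given apart. *Ifit2* was not analysed here.

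Cells were isolated from the semitendinosus muscle of young stallions and were taken at day 3 of differentiation. According to the paper, all horses gave cultures, and the culture scoring best for viability and fusion was taken forward. The HMB-treated group received 50 µM HMB for 24 h, added after day 2, and 3 mM hydrogen peroxide (H2O2) in the last 1 h. In the paper's design the control received the same H2O2 without HMB, so both groups carry the oxidative challenge. The array labels name H2O2 only for the HMB-treated sample. Each of 4 two-colour arrays compared HMB-treated RNA (Cy5) with control RNA (Cy3) directly, so every ratio below is HMB-treated over control within 1 array. The dyes were not swapped, so dye and treatment cannot be told apart. The labels number the arrays as biological replicates 1 to 4 but give the control the same number on each. They do not tie arrays to animals. The p-values therefore measure only the spread between these 4 samples, and not a spread between horses. Of 10 muscle marker genes, 8 were tested and all 8 were well above background in both channels on all arrays, among them *myod1*, *myog* and *des*. The same held for 5 of 6 fibroblast markers and 3 of 8 leukocyte markers. None of 5 endothelial markers could be tested.

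Oligoadenylate synthetases are sensors of double-stranded RNA. When *oas1*, *oas2* and *oas3* proteins bind it, they join ATP into short 2′-5′-linked oligoadenylates (2-5A) that act as an antiviral second messenger. The product of *oasl* is related in sequence but does not make 2-5A, and is known for strengthening signalling by the RNA sensor RIG-I. IFIT proteins bind RNA whose 5′ end lacks the marks of host messenger RNA and hold back its translation. Genes of both families are transcribed in response to type I interferon in most cell types, muscle cells included.

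The probes that carry the measurements are 60-base oligonucleotides. They are shown so that the measured stretch of each transcript can be located, with positions counted from the start of the transcript and coordinates on the EquCab1 build as the array files give them. The 4 *oas1* probes lay within 125 bases of one another on chromosome 8, minus strand, and the first 30 bases of the outer pair are shown, because their ratios differ although they mark 1 transcript.
*oas1*, position 1452, chr8:19350908-19350967: tgttttctgacaatattctctgagaggcaa
*oas1*, position 1517, chr8:19350843-19350902: cttgactttcttctgtgtgcctggtgagaa

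*Oas2* had 5 probes shifted by 1 base each, which share 59 bases with their neighbours, and a separate one further along, both on the minus strand. Their first 30 bases are shown because these separate stretches gave nearly the same ratio.
*oas2*, position 3336, chr8:19293124-19293183: tcctattgtcaatgagatgttctcactccg
*oas2*, position 3558, chr8:19292902-19292961: tcgccttgctgagctctcactccgtgagtg

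*Oas3* had 1 probe under its symbol, also on the minus strand of chromosome 8. *Oasl* had 2 probes that follow each other without a gap on the plus strand, elsewhere on the same chromosome. Shown are the first 30 bases of the former and of the upstream *oasl* probe, and the last 30 bases of the downstream one, in which capitals mark the letters AATAAA, the usual polyadenylation signal motif. These letters were present on the probe strand in 8.64% of all 43603 probes and on either strand in 11.9%, and in the families they also occurred in the *ifit1* probe.
*oas3*, position 4745, chr8:19325457-19325516: agatggcttctgcctccttcctttagcaca
*oasl*, position 2862, chr8:13067230-13067289: aaataactcacatacctatgccttataaac
*oasl*, position 2922, chr8:13067290-13067349: actccatgctattttctgAATAAAagagca

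The 3 IFIT probes lay on the minus strand of chromosome 1, and are shown whole as the single probe of each gene. Capitals in the *ifit5* probe mark TAA, the stop codon that ends its open reading frame.
*ifit1*, position 1305, chr1:38243065-38243124: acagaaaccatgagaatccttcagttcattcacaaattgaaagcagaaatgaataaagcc
*ifit3*, position 1468, chr1:38311932-38311991: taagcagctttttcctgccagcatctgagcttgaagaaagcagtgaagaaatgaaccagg
*ifit5*, position 1386, chr1:38225382-38225441: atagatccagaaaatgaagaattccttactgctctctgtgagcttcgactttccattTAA

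No probe of the families shared a run of 20 bases with a probe of another gene. Their GC content lay between 35.0% and 45%.

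Expression of the families was higher in the HMB-treated group than in the control at most probes, and neither 1 of the 2 *oasl* probes nor the *oas3* probe named only in its description was called. All 14 probes named by symbol were tested, and 13 were called higher, against 12.1% of the 24673 tested probes called higher and 28.6% called in either direction. A probe was called when the adjusted p of limma's moderated test against a ratio of 1, with Benjamini-Hochberg adjustment over all tested probes, was at most 0.05 and the fold change (FC) at least 1.3. The median log2 ratio over the 14 probes was 3.10, and over all tested probes it was -0.07. For 13 of the 14 probes the lowest HMB-treated signal of the 4 arrays was above the highest control signal, which held for 8.67% of all tested probes. The log2 ratio was at least 2 on every array for 12 of the 14 probes, compared with 1.41% of tested probes. Several probes share a transcript or most of their sequence, so the 14 are not independent. Counted by gene on the brightest tested probe, 4 of 5 genes were called higher, where 10.5% of 8904 genes with a tested probe were called higher and 27.7% in either direction. In RNA from whole cultures, fewer cells of a type and less RNA per cell cannot be told apart.

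**Figure D1:**
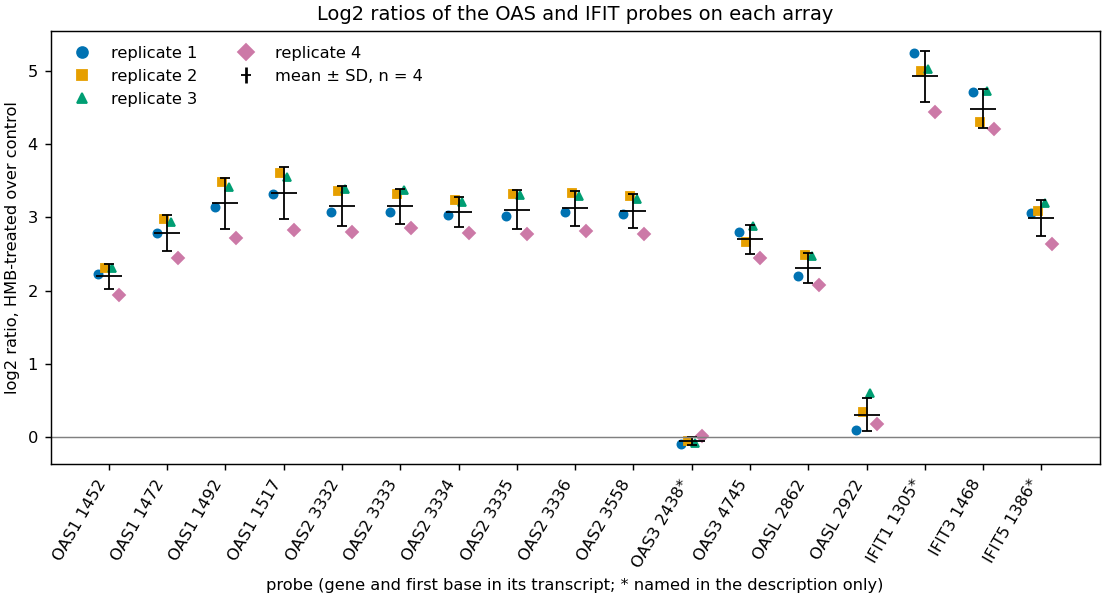
The log2 ratio of HMB-treated over control RNA is plotted for each probe of the families, with 1 point per array and bars for the mean ± SD (n = 4). The called probes named by symbol have means between 2.20 and 4.48, and the downstream *oasl* probe and the *oas3* probe named only in its description lie near 0.

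*Oas1*, the smallest of the synthetases, was higher in the HMB-treated group at all 4 probes, by an FC between 4.58 and 10.0. At its brightest probe, at position 1517, the control signals of replicates 1 to 4 were 7243, 6090, 7657 and 7199, and the HMB-treated signals were 72460, 74200, 89936 and 51193. The log2 ratios of the 4 arrays were 3.32, 3.61, 3.55 and 2.83, with a mean of 3.33 ± 0.35 (SD, n = 4, adjusted p = 1.44e-05 in limma). Every HMB-treated signal lay far above every control signal, and replicate 4 gave the lowest ratio. At position 1452, control signals of 6469, 6553, 7917 and 5994 stood against HMB-treated signals of 30190, 32420, 39233 and 23059. The mean log2 ratio there was 2.20 ± 0.17 (SD, n = 4, adjusted p = 1.05e-05 in limma), and the ratios on the arrays were 2.22, 2.31, 2.31 and 1.94. The probes between them, at positions 1472 and 1492, gave 2.79 ± 0.24 and 3.19 ± 0.35 (SD, n = 4), so the ratio increased along the transcript within the length of about 1 probe. Adjacent *oas1* probes share 35 to 40 bases. The outer pair differed by 1.13 ± 0.18 on the log2 scale (SD, n = 4), and each step along the transcript was positive on 4 of 4 arrays.

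*Oas2*, a larger synthetase of the same family, had 6 probes, and all 6 were called higher with nearly equal ratios. At position 3558 the control signals were 2921, 2604, 3232 and 2837, and the HMB-treated signals were 24168, 25531, 30647 and 19415. The log2 ratios were 3.05, 3.29, 3.25 and 2.77, with a mean of 3.09 ± 0.24 (SD, n = 4, adjusted p = 5.22e-06 in limma). The groups did not overlap, and replicate 4 was again the lowest. The 5 probes shifted by 1 base gave mean log2 ratios between 3.07 and 3.16, with SDs of 0.20 to 0.28 and limma adjusted p between 3.69e-06 and 7.54e-06. The means of the 6 probes differed by less than the SD between arrays.

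*Oas3*, the largest synthetase and a high-affinity sensor of long double-stranded RNA, was higher in the HMB-treated group at the probe that carries its symbol. Control signals were 188, 212, 229 and 149, and HMB-treated signals were 1315, 1343, 1687 and 811. The log2 ratios of 2.81, 2.67, 2.88 and 2.44 had a mean of 2.70 ± 0.19 (SD, n = 4, adjusted p = 5.46e-06 in limma), an FC of 6.50. The groups did not overlap. The probe named *oas3* only in its description marks another Ensembl transcript at position 2438 and is placed across chr8:19330302-19330475, so that its 60 bases span 174 bases of genome. Its signals were low but well above background on all arrays, 27.3 to 44.8 in the control and 25.7 to 42.4 in the HMB-treated group, and the channels overlapped. Its mean log2 ratio was -0.05 ± 0.05 (SD, n = 4, adjusted p = 0.535 in limma). The 95% confidence interval, from the t distribution and the probe's own SD, was -0.128 to 0.0311. This value changed with the processing. It was -0.24, not called, when ratios were centered on the median, and -0.90, called lower, when they were centered on spike-in RNA. On the same arrays the symbol-named probe was higher by 2.75 ± 0.24 on the log2 scale (SD, n = 4).

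*Oasl*, the relative without 2-5A synthesis, gave different values at its 2 adjacent probes. At position 2862 the control signals were 135, 173, 206 and 135, and the HMB-treated signals were 624, 972, 1141 and 568. The log2 ratios were 2.21, 2.49, 2.47 and 2.07, and their mean was 2.31 ± 0.20 (SD, n = 4, adjusted p = 1.24e-05 in limma), an FC of 4.96. This probe was called higher and its groups did not overlap. At position 2922, the next 60 bases, control signals were 6144, 5605, 6363 and 5093 and HMB-treated signals 6566, 7146, 9694 and 5761. The log2 ratios of 0.10, 0.35, 0.61 and 0.18 averaged 0.31 ± 0.23 (SD, n = 4, adjusted p = 0.0400 in limma). The 95% confidence interval, from the t distribution and the probe's own SD, was -0.0521 to 0.668. Limma's p rests on a variance moderated over all tested probes, so it and the interval need not match. The FC of 1.24 was under the FC threshold, the groups overlapped, and the probe was not called. As it is the brighter of the pair, it gives the gene its value in the count by gene, where *oasl* is the 1 gene of 5 not called. Its call changed with the processing, from -0.24 when ratios were centered on spike-in RNA to 0.42, called, when they were centered on the median. Without replicate 1 it was also called, at 0.38.

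The upstream *oasl* probe exceeded the downstream one by 2.00 ± 0.14 on the log2 scale (SD, n = 4), and by 1.86 to 2.14 on the single arrays. Over 6 such differences between probes of 1 gene, the exact two-sided sign-flip permutation test gave p = 0.125 for each, also after Benjamini-Hochberg adjustment, and 0.125 is the smallest p that 4 arrays allow. The differences of *oas1*, *oas3* and *oasl* were positive on 4 of 4 arrays.

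**Figure D2:**
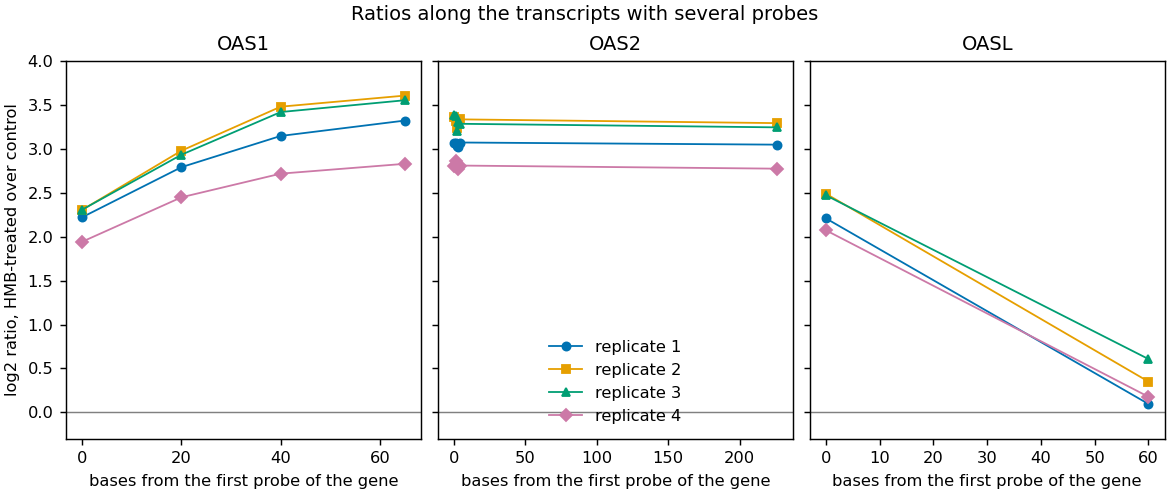
The log2 ratio of HMB-treated over control RNA is plotted against the distance, in bases, from the first probe of the gene for *oas1*, *oas2* and *oasl*, with 1 line per array. Ratios increased along *oas1*, stayed level over *oas2* and were 2.00 lower on average at the second *oasl* probe.

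*Ifit3*, whose protein binds and stabilises that of *ifit1*, was the only IFIT gene with a probe under its symbol and had the highest ratio of the 14 probes. Control signals were 148, 179, 187 and 149, and HMB-treated signals were 3877, 3533, 4933 and 2737. The log2 ratios of 4.71, 4.31, 4.72 and 4.20 had a mean of 4.48 ± 0.27 (SD, n = 4, adjusted p = 1.90e-06 in limma), an FC of 22.4. The groups did not overlap on any array. With the normexp background correction in place of subtraction its mean log2 ratio was 3.59, still called.

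*Ifit1*, the IFIT member best known for binding RNA with an incomplete cap, was read from the probe that names it in its description. That name is the array's own, and the horse RefSeq table (a thoroughbred assembly) has no gene of this symbol but lists IFIT1B between *ifit5* and *ifit3*, so which of these the probe marks was not settled. Its control signals were 24.4, 36.7, 43.7 and 38.2, near the background, and replicate 1 was not well above it. HMB-treated signals were 921, 1172, 1427 and 825. The log2 ratios were 5.24, 5.0, 5.03 and 4.43, with a mean of 4.93 ± 0.35 (SD, n = 4, adjusted p = 2.58e-06 in limma), and the groups did not overlap. Because the control signal was so low, this size depends on the background correction, and it was 2.75 with normexp and 3.32 with none, called under both.

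*Ifit5*, which binds RNA with a 5′ triphosphate, was likewise named only in a description. Control signals of 241, 246, 296 and 241 stood against HMB-treated signals of 2014, 2088, 2701 and 1502. The log2 ratios of 3.06, 3.09, 3.19 and 2.64 had a mean of 3.00 ± 0.24 (SD, n = 4, adjusted p = 6.37e-06 in limma). This probe was called higher, without overlap of the groups. With *ifit1* and *ifit5* added, 6 of 7 measured genes were called higher on their brightest probe, against 10.5% of all genes. *Ifit1* is among the 6 and was tested through its HMB-treated channel, since its control was well above background on 3 arrays only.

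**Figure D3:**
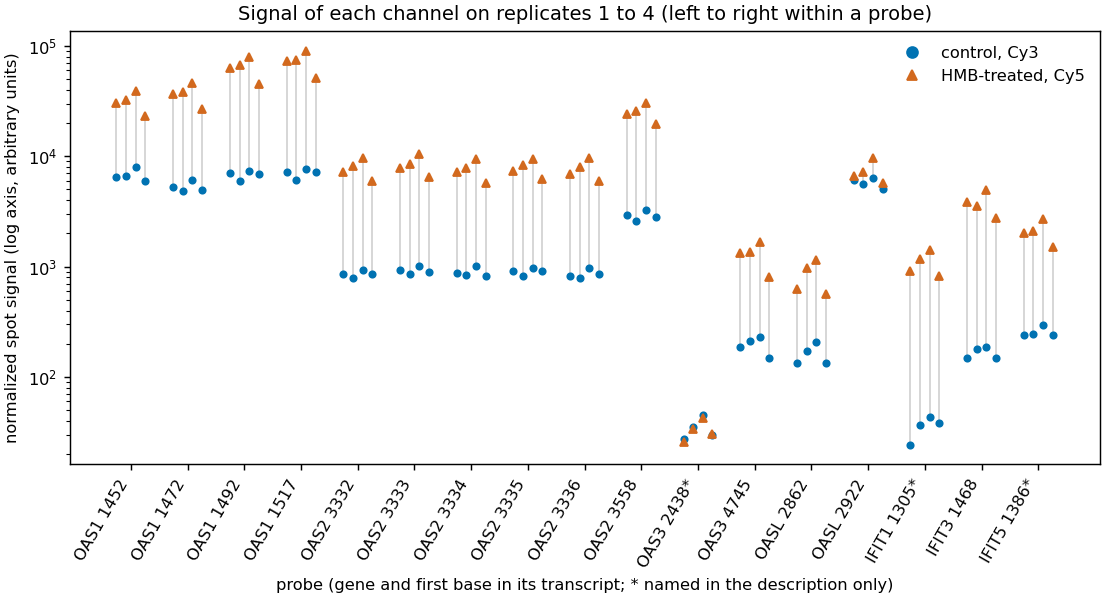
The processed signal (log axis) of control RNA (Cy3) and HMB-treated RNA (Cy5) is plotted for every probe of the families, with 1 point per array and a grey line joining the channels of an array. The channels overlap only at *oasl* position 2922 and at the *oas3* probe named in its description.

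By mean log2 ratio, the falling order was *ifit3*, *oas1*, *oas2*, *ifit5* and *oas3* on their brightest probes and then the upstream *oasl* probe. Probes of 1 transcript differed by up to 2.00, more than any gap in this order, so it ranks these probes and not the genes. *Ifit3* and *oas1* alone had array ranges that did not overlap, with a difference of 1.16 ± 0.32 on the log2 scale (SD, n = 4). *Oas1* lay above *oas2* by 0.24 ± 0.12 (SD, n = 4) on these probes, but the order turned with the mean over all probes of a gene, at 2.88 for *oas1* and 3.12 for *oas2*. *Ifit5* exceeded *oas3* by 0.30 ± 0.10 and *oas3* exceeded *oasl* by 0.39 ± 0.17 (SD, n = 4), each on 4 of 4 arrays. *Oas2* and *ifit5* differed by 0.10 ± 0.10 (SD, n = 4), and on 3 of 4 arrays in that direction. *Ifit1* had no settled place, since it was above *ifit3* with background subtraction but below it with normexp, at 2.75 and 3.59, and with no correction, at 3.32 and 3.99. Of 6 neighbour comparisons made, with *ifit1* included, none could pass an exact two-sided sign-flip permutation test, whose smallest p of 0.125 became 0.15 after adjustment over the 6, and *oas2* against *ifit5* gave p = 0.25.

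The arrays ranked alike across the families. Replicate 4 gave the lowest ratio at 13 of the 14 probes and replicate 1 at the remaining one, while replicate 2 was highest at 8 and replicate 3 at 6. Replicate 4 was also the lowest array at 43.2% of all probes called higher and at 25.5% of all tested probes. Without replicate 4 the mean log2 ratio of *ifit3* was 4.58 and that of *oas1* 3.49, and the 13 probes remained called.

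**Figure D4:**
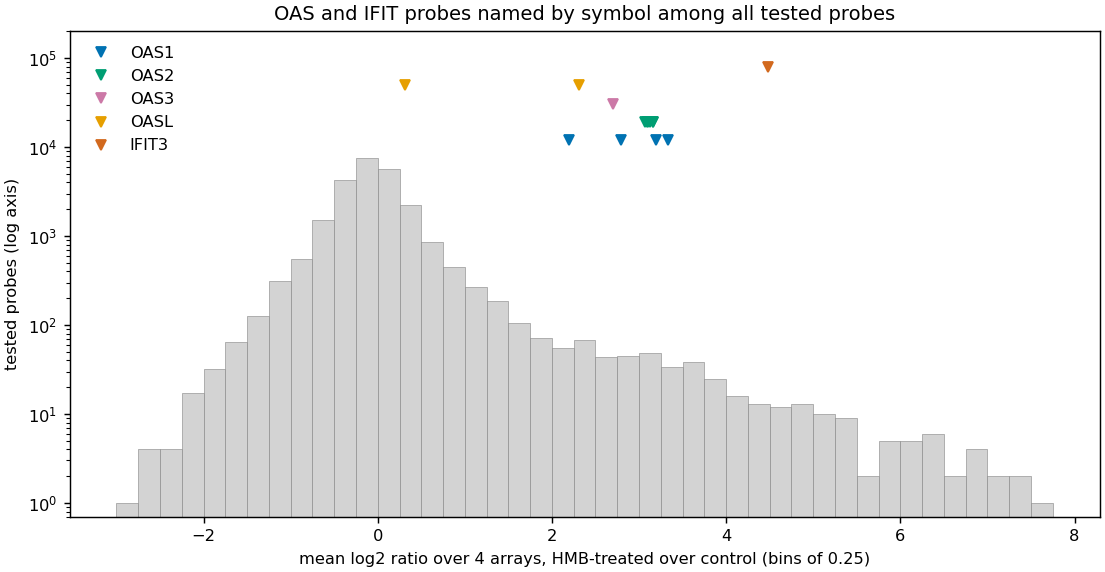
The histogram counts the 24673 tested probes by mean log2 ratio over the 4 arrays, HMB-treated over control, with a log count axis and bins of 0.25. Triangles mark the 14 probes of the families named by symbol at their mean ratio, with a height that separates genes and carries no value, and 13 of them lie at 2.20 or above.

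Among the genes that act with the 2 families, *abce1*, known as a ribosome recycling factor, was lower at its brightest probe, at -0.47 ± 0.13 (SD, n = 4, adjusted p = 0.00330 in limma). Its other tested probe, at -0.36, was not called. The call of the brightest probe was lost with either other background correction, at -0.31 and -0.34, and when limma tested for an FC above 1.3 (adjusted p = 0.629). *Pde12*, a phosphodiesterase that degrades 2-5A, was at -0.02 ± 0.09 (SD, n = 4, adjusted p = 0.778 in limma) and was not called. The translation factor subunits *eif3c* and *eif3e*, which IFIT proteins bind, were at -0.09 ± 0.04 and -0.15 ± 0.07 (SD, n = 4) and were not called, with limma adjusted p of 0.245 and 0.0916. No value is given for *cmtr1*, a cap methyltransferase, which was not analysed here.

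Upstream of both families, 4 of the 5 tested genes of RNA sensing and 6 of the 8 tested genes of interferon signalling were called higher, and none was called lower, where 10.5% of all genes were called higher. The RNA sensors *ddx58* (RIG-I) and *ifih1* (MDA5) were at 3.61 ± 0.29 and 5.36 ± 0.49 on the log2 scale (SD, n = 4). *Ifnb1*, the type I interferon ligand, had log2 ratios of 2.14, 3.88, 4.70 and 2.95, a wider spread than any member, and a mean of 3.42 ± 1.11 (SD, n = 4, adjusted p = 9.25e-04 in limma). Its control signal was well above background on only 1 of 4 arrays, so it was tested through the HMB-treated channel and the size rests on the background correction, with 0.63 under normexp and 1.0 with none, called under both. *Ifnb1* is among the 6 genes of interferon signalling called higher. *Stat2* and *irf9*, whose products bind interferon-stimulated response elements together, were called higher at 0.70 ± 0.23 and 1.78 ± 0.19 (SD, n = 4), with adjusted p of 0.00217 and 3.07e-05 in limma. The *stat2* call was lost when limma tested for an FC above 1.3 (adjusted p = 0.0660) and with spike-in centering (0.11). Over all 4 lists, 11 of 18 tested genes were called higher and 1 lower, with a median log2 ratio of 0.68, against 10.5% and 17.1% of all genes. Where both channels had to be well above background on all arrays, *ifnb1* was left out, and 10 were called higher and 1 lower. Centering on spike-in RNA moved the median of all tested probes by -0.61 and turned the split of 11 and 1 to 8 higher and 7 lower, whereas the 13 called probes of the families remained called higher.

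**Figure D5:**
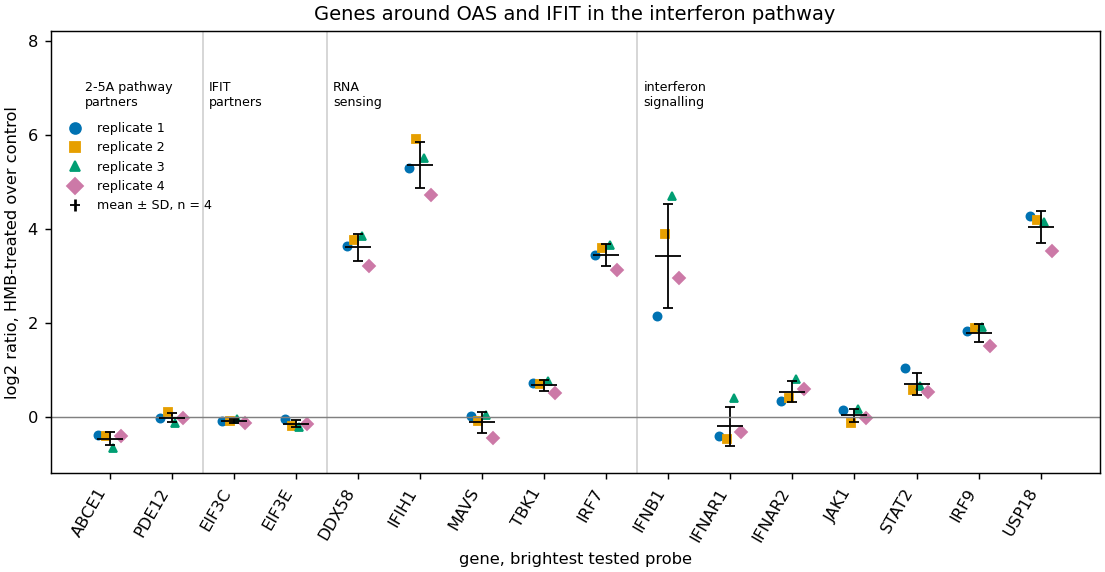
The log2 ratio of HMB-treated over control RNA is plotted for tested genes of the pathway lists at their brightest probe, with 1 point per array and bars for the mean ± SD (n = 4). Some list genes that are counted but not reported here are left out. The RNA sensors, *irf7*, *usp18* and *ifnb1* have means above 3, and those of *pde12*, *eif3c*, *eif3e*, *mavs* and *jak1* are near 0.

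Some markers of cell types also differed between HMB-treated and control RNA, in both directions. Of the muscle markers, 6 of 8 tested were called lower in the HMB-treated group and none higher, where 17.1% of all genes were called lower, and their summed signal was 394465 to 466684 in the control and 203588 to 298299 in the HMB-treated group. Of 5 tested fibroblast markers 4 were called higher, against 10.5% of all genes, with summed signals of 194234 to 222836 in the control and 223303 to 339797 in the HMB-treated group. Of 8 leukocyte markers 3 were tested and 1 was called higher, *cd68*, while *itgam*, *aif1* and *cd3e* were not well above background on any array, and their summed signal was 3898 to 4786 in the control and 4353 to 6508 in the HMB-treated group. Endothelial markers summed to 43.7 to 83.3 in the control and 49.9 to 80.9 in the HMB-treated group, with 4 of 5 well above background in no channel. The part of muscle, fibroblast and leukocyte markers in the OAS and IFIT ratios was not tested.

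The genes with ratios most like those of the families were found as the smallest root mean square difference of log2 ratios over the 4 arrays, among 8408 genes. Symbols that begin with LOC were left out. The ratios were not centered, so the measure weighs their level as well as their pattern over arrays. Each gene was taken at its brightest probe, which for *oasl* is the uncalled one. For the median of the 4 OAS genes, whose values were 2.93, 2.98, 3.06 and 2.61 on replicates 1 to 4, these were *xaf1* with a difference of 0.113, *znfx1* with 0.123, *ube2l6* with 0.126, *ccl13* with 0.149 and *c7h19orf66* with 0.150. For the IFIT family, which here is *ifit3* alone, they were *tnfsf10* with 0.200, *il6* with 0.209, *herc5* with 0.261, *mx1* with 0.279 and *ccl2* with 0.281. Among them, *mx1* encodes an antiviral GTPase, *ube2l6* and *herc5* encode enzymes that attach the ubiquitin-like protein ISG15, and *ccl2* and *ccl13* encode chemokines. The order within each set of 5 was not tested.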

How the data were processed

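RNA with integrity numbers of at least 9.2 was hybridised by the authors to 4 Agilent horse 4x44K arrays on 1 slide. Per the file headers, the deposited scanner values were made with Feature Extraction 10.10.1.1, with background subtraction and linear and lowess dye normalization. The deposited intensity of each channel was background-subtracted and dye-normalized by the authors. The deposited log10 ratio is that of these Cy5 over Cy3 intensities as the authors normalized them, and it was multiplied by log2(10) here. The deposited value table, also by the authors, held the same log10 ratios to within 3.96e-05 and was an alternative.

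Control spots and marked spots (13 to 35 an array) were left out, and spots of 1 probe were averaged. Probes were tested where 1 and the same channel exceeded background clearly (the scanner's flag) on each of the 4 arrays, with a ratio present on at least 3. Between 55.2% and 61.8% of probes were well above background in a channel, and no spot was saturated. The number of arrays limits the precision. Array pairs correlated with r between 0.837 and 0.920 over probes, which are not independent replicates.

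Ratios were tested with limma 3.58.1 in R 4.3.3. In simulated data of 24673 probes with independent noise, 50 probes were changed at each of the folds 1.5, 2, 4 and 8. There 25 of 50 probes changed 1.5-fold and 48 of 50 changed 2-fold were recovered, with 6 false calls. Far fewer probes changed there than were called in the data, so these shares need not hold for the data. A gene value is that of its brightest tested probe. Named were all members, the 2-5A and IFIT partners, *ifnb1*, *stat2* and *irf9*, and the 5 genes most like each family, apart from some list genes that are counted but not reported here. *Ddx58*, *ifih1*, *cd68* and the other genes named by value or marker were chosen after their values were seen. Members and lists were chosen with earlier results of these data known. Alternatives were another background correction, centering, filter or test, the mean over probes, and each array left out.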

Additional observations from a re-analysis of the deposited data

Results flagged for a closer look

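A 60-base probe with no gene name lay at chr1:38223846-38223905 on the minus strand (EquCab1), 1476 bases from the *ifit5* probe, and belonged to none of the comparisons. Its signal in the HMB-treated group was above that of the control, with log2 ratios of 3.52, 3.52, 3.54 and 3.16 and a mean of 3.43 ± 0.18 (SD, n = 4, limma adjusted p = 1.98e-06). No gene was assigned to it.

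Of 45 probes examined for 1 array far from the other 3, 4 stood out, and chance flags about 1 in 20. The log2 ratio of *abce1* was -0.67 on replicate 3 and -0.41 to -0.40 on the others. Replicate 4 was lower than the other arrays for *usp18*, at 3.53 against 4.15 to 4.27, for *mx1*, at 3.77 against 4.55 to 4.58, and for *ccl2*, at 3.85 against 4.38 to 4.46. No OAS or IFIT probe was among the 4.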

How the results depend on the processing

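The 13 called probes named by symbol remained called higher under all 15 settings run on single probes. The lowest mean log2 ratio among them was 1.67, at the upstream *oasl* probe. The brightest *oasl* probe changed its call, at 0.42 when signals were centered on the median (called), and its gene mean over both probes was 1.31 (called). Centered on spike-in RNA it was reversed at -0.24 and not called. Leaving out 1 array gave it 0.21 to 0.38, called only without replicate 1. Leaving out 1 array gave 3.24 to 3.49 for *oas1*, 3.02 to 3.20 for *oas2*, 2.64 to 2.79 for *oas3* and 4.41 to 4.58 for *ifit3*, all called. Over all genes, 7048 probes were called, against 2822 with limma's test for an FC above 1.3, 3538 with normexp, 4439 without background correction and 20266 with spike-in centering. The share of calls that were higher was 42.5%, and 54.6%, 55%, 60.1% and 4.86% under those settings, and 50.1% centered on the median. The cause was not tested. The *ifit1* probe was left out where both channels had to be well above background. All arrays lay on 1 slide, so slide could not be a term. The tested ratio already pairs both groups within each array, so the replicate number could give no further block.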
